A study of Homo sapiens with 19 samples.

Results

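The genes described here are the 8 that encode or control the main parts of antigen presentation by MHC class II: HLA-DRA, HLA-DRB1, HLA-DPA1, HLA-DPB1, HLA-DMA, HLA-DMB, CD74 and CIITA. They were chosen by name, out of 11963 genes named on the array, with earlier results of these data known. Counts of called members and the shares of all genes beside them are therefore descriptions. The genes were followed through every probe set annotated to 1 of them and to no other gene. This gave 13 of the 22283 probe sets, a probe set being a group of short probes against 1 transcript region. The 13 were 3 for HLA-DPA1, 3 for CIITA, 2 for HLA-DRA and 1 for each of the others. HLA-DRB1 was read by a probe set of the type that can also bind transcripts of closely related DRB genes, so its values are uncertain as to which DRB copy they measure.

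The study measured RNA of 19 cultured lines, 1 array each, all derived from MDA-MB-231, an established human breast cancer cell line without oestrogen receptor. Besides the parental line there were 3 weakly (2293, 2295, 2296) and 4 strongly (1833, 2274, 2268, 2269) bone-metastatic lines, and 3 weakly (SCP21, SCP6, SCP26) and 4 strongly (4142, 4173, 4175, 4180) lung-metastatic lines. From 1833 and from 4175 there was also 1 modal-ploid and 1 hyper-ploid subline, the latter of raised DNA content. The title of the series asks whether a spontaneous doubling of ploidy enhances metastasis. The line titled 2296 carries the number 2297 in another label of the same sample. All were kept in serum-containing medium with antibiotics and, where needed, selective drugs, no other treatment is named, and RNA was taken before the cultures were confluent. The arrays of 1833 and 4175 are of the original sublines after a short culture. Each group is a set of different lines with 1 culture each, so the spread within a group is that between lines, and a group of sublines rests on 1 line per array.

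MHC class II molecules present peptides from the endosomal pathway to CD4+ T cells. An alpha and a beta chain (HLA-DRA with HLA-DRB1, HLA-DPA1 with HLA-DPB1) pair in the endoplasmic reticulum with the invariant chain CD74, which fills the peptide groove and directs the complex to endosomes. There HLA-DM, made of HLA-DMA and HLA-DMB, exchanges the remnant of CD74 for antigenic peptide. Transcription of all these genes depends on the coactivator CIITA, which is recruited by factors bound to an X box and a Y box in their promoters and which is itself induced by interferon gamma in cells that are not professional antigen-presenting cells. Many breast cancer cells carry little class II on their surface unless induced.

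Promoter stretches are shown because the members moved together across the lines, and because the Y box, one of the boxes they share in textbook accounts, has the core CCAAT. Reference sequences from RefSeq (GRCh38.p14) were matched for 6 of the 8 genes. Each of the 5 shown runs 5′ to 3′ over 110 bases that end shortly before the gene's start, in lower case, with CCAAT in capitals, or ATTGG where CCAAT lies on the other strand.
HLA-DRB1, chr6:32589864-32589973, minus strand: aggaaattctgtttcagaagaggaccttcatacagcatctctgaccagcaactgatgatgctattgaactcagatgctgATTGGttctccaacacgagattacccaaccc
HLA-DPB1, chr6:33075865-33075974, plus strand: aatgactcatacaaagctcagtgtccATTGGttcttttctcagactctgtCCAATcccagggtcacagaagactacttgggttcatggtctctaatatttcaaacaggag
HLA-DMA, chr6:32953113-32953222, minus strand: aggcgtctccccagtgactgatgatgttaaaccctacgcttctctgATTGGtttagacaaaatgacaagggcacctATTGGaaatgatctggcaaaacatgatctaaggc
HLA-DMB, chr6:32941044-32941153, minus strand: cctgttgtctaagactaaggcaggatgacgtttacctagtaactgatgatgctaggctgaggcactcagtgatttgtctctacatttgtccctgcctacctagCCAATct
CD74, chr5:150412926-150413035, minus strand: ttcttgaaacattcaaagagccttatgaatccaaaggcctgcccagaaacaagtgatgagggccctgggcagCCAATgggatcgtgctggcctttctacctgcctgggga

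Within 250 bases before the start, CCAAT was found on either strand in 5 of the 7 member promoters, those printed, and in 32% of all 35116 promoters of the table. It was not in either of the 2 windows of HLA-DPA1. In the stretch of HLA-DRB1 the CCAAT match began 46 bases before the start, in CD74 at 53 and in HLA-DMB at 22. HLA-DMA had it at 79 and 49 and HLA-DPB1 at 99 and 75. A match is a description of the letters and not of a bound factor, and which of the matches are Y boxes was not tested. On the same build the HLA genes lie together on chromosome 6, with HLA-DRA at chr6:32439887-32445046, HLA-DRB1 at chr6:32578775-32589848, HLA-DMB at chr6:32934636-32941028, HLA-DMA at chr6:32948618-32953097, HLA-DPA1 at chr6:33064569-33080748 and HLA-DPB1 at chr6:33075990-33089696. CD74 lies at chr5:150401639-150412910 and CIITA at chr16:10866206-10943021.

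Levels are given as scaled signals, that is, array signals recovered from the authors' ratios and brought to a common array median. Because those ratios fall into 2 separately divided sets, lines are compared only within the set of the parental, bone and 1833 subline arrays or within that of the lung and 4175 subline arrays. Differences between groups are on the scale log2(scaled signal + 16), which understates changes of dim genes, with limma p-values adjusted after Benjamini and Hochberg over all 9549 genes tested. For each gene the brightest probe set that passed the filter on dim signals stands for it unless another is named. Of the 13 member probe sets 12 passed that filter, and all 8 genes were represented. An array's 40th percentile, taken here as the level below which a probe set is dim, lay at a scaled signal between 71.1 and 93.2.

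In the bone set 7 of the 8 genes were lower in strongly than in weakly metastatic lines and 0 were higher. Of all genes tested 4.58% were called lower in this comparison and 11.1% in either direction. The median log2 difference of the 8 was -2.16, against 0.01 for all genes. The call was made for each chain of the DR, DP and DM pairs and for CD74, and not for CIITA. In the same 7 genes every strong line lay below every weak line, which held for 12.9% of all genes.

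HLA-DRA, the alpha chain of HLA-DR, had scaled signals of 2521 in 2293, 2119 in 2295 and 2633 in 2296, all weak lines. In the strong lines it stood at 289 in 1833, 282 in 2274, 326.7 in 2268 and 256.4 in 2269. The groups were far apart and tight, with a mean of 2424 ± 270.4 (SD, n = 3) against 288.5 ± 29.1 (SD, n = 4). The log2 difference was -3.00 (SE 0.45, adjusted p = 0.00105). The parental array, at 2571, lay within the range of the weak lines. A second HLA-DRA probe set gave -3.89 (SE 0.76, adjusted p = 0.00615 over probe sets), with less even strong lines. Those ranged from 44.3 to 373.4, and 2 of the 4 lay above the 40th percentile.

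HLA-DRB1, the beta chain partner, read 3320, 3299 and 3870 in the weak lines 2293, 2295 and 2296. It read 393.3, 292.9, 564.1 and 320.3 in the strong lines 1833, 2274, 2268 and 2269. Here 2268 was the highest strong line, still far below the lowest weak line, and the parental array stood at 3861. The log2 difference was -3.14 (SE 0.39, adjusted p = 0.000302). A further 4 probe sets annotated to HLA-DRB1 together with other DR or DQ genes, which are not counted among the 13, had log2 differences from -2.94 to -1.93, without overlap of the groups.

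The DP chains form another peptide-presenting molecule of class II, and both were lower. HLA-DPA1 was 893.6, 664.4 and 1356 in the weak lines 2293, 2295 and 2296. It was 121.5 in 1833, 173.9 in 2274, 259.1 in 2268 and 181.6 in 2269, below each weak line. The log2 difference was -2.29 (SE 0.45, adjusted p = 0.00641). A second HLA-DPA1 probe set gave -2.46 (SE 0.55, adjusted p = 0.0129 over probe sets). The third was at or below the 40th percentile in the 4 strong lines and passed the filter only through the parental and weak lines, so it had to differ and is given as a description, at least 2.59-fold lower. HLA-DPB1 had a mean of 403.3 ± 75.7 (SD, n = 3) in weak and 86.6 ± 30.4 (SD, n = 4) in strong lines. Its difference was -2.07 (SE 0.46, adjusted p = 0.0115), with 2 of the 4 strong lines above the 40th percentile. For both DP genes the parental array was above all weak bone lines, at 1821 for HLA-DPA1 and 861.9 for HLA-DPB1.

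CD74, the invariant chain, was 6749, 6478 and 4911 in the weak lines 2293, 2295 and 2296. In the strong lines 1833, 2274, 2268 and 2269 it was 935.6, 1253, 1794 and 1187. As for HLA-DRB1 the line 2268 was the highest of the strong ones, and no strong line came near the weak range. The log2 difference was -2.24 (SE 0.27, adjusted p = 0.000262), and the parental array stood at 5098.

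The chains of HLA-DM, the peptide exchange factor, had the smallest differences among the called members. HLA-DMA had a mean of 1137 ± 102.7 (SD, n = 3) in weak and 562.3 ± 65.2 (SD, n = 4) in strong lines, a log2 difference of -1.0 (SE 0.24, adjusted p = 0.0188). HLA-DMB had 1054 ± 218.1 (SD, n = 3) and 434.5 ± 122.4 (SD, n = 4), a difference of -1.27 (SE 0.31, adjusted p = 0.0192). Neither DM gene overlapped between the groups, and both stayed well above the 40th percentile on every array of the strong lines. These calls were the least secure: without the weak line 2293 the number of members called fell from 7 to 4, as HLA-DPB1, HLA-DMA and HLA-DMB had adjusted p = 0.0504, 0.0751 and 0.0823. The sizes of the differences then were -1.93, -0.93 and -1.14.

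CIITA, the coactivator of the whole group, had signals near the dim level in the bone lines and was not called. Its brightest probe set read 138.1, 112.1 and 63.9 in the weak bone lines 2293, 2295 and 2296. In the strong lines 1833, 2274, 2268 and 2269 it read 109.2, 69.2, 49.7 and 104.4, and the groups overlapped. The log2 difference was -0.28 (SE 0.30, adjusted p = 0.609), with the parental array highest of the bone set at 190.1. A second CIITA probe set had -1.29 (SE 0.43, adjusted p = 0.0717 over probe sets), from 84.6 ± 15.3 (SD, n = 3) to 28.3 ± 20.0 (SD, n = 4), and 2 of those 7 arrays were above the 40th percentile. On this probe set the groups did not overlap, with 67.3 to 95.9 in weak and 5.98 to 51.5 in strong bone lines. The third lay at or below that percentile on all 19 arrays and was filtered out. No difference of CIITA was called here, with signals this near the dim level, which is not evidence that a difference is absent.

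**Figure D1:**
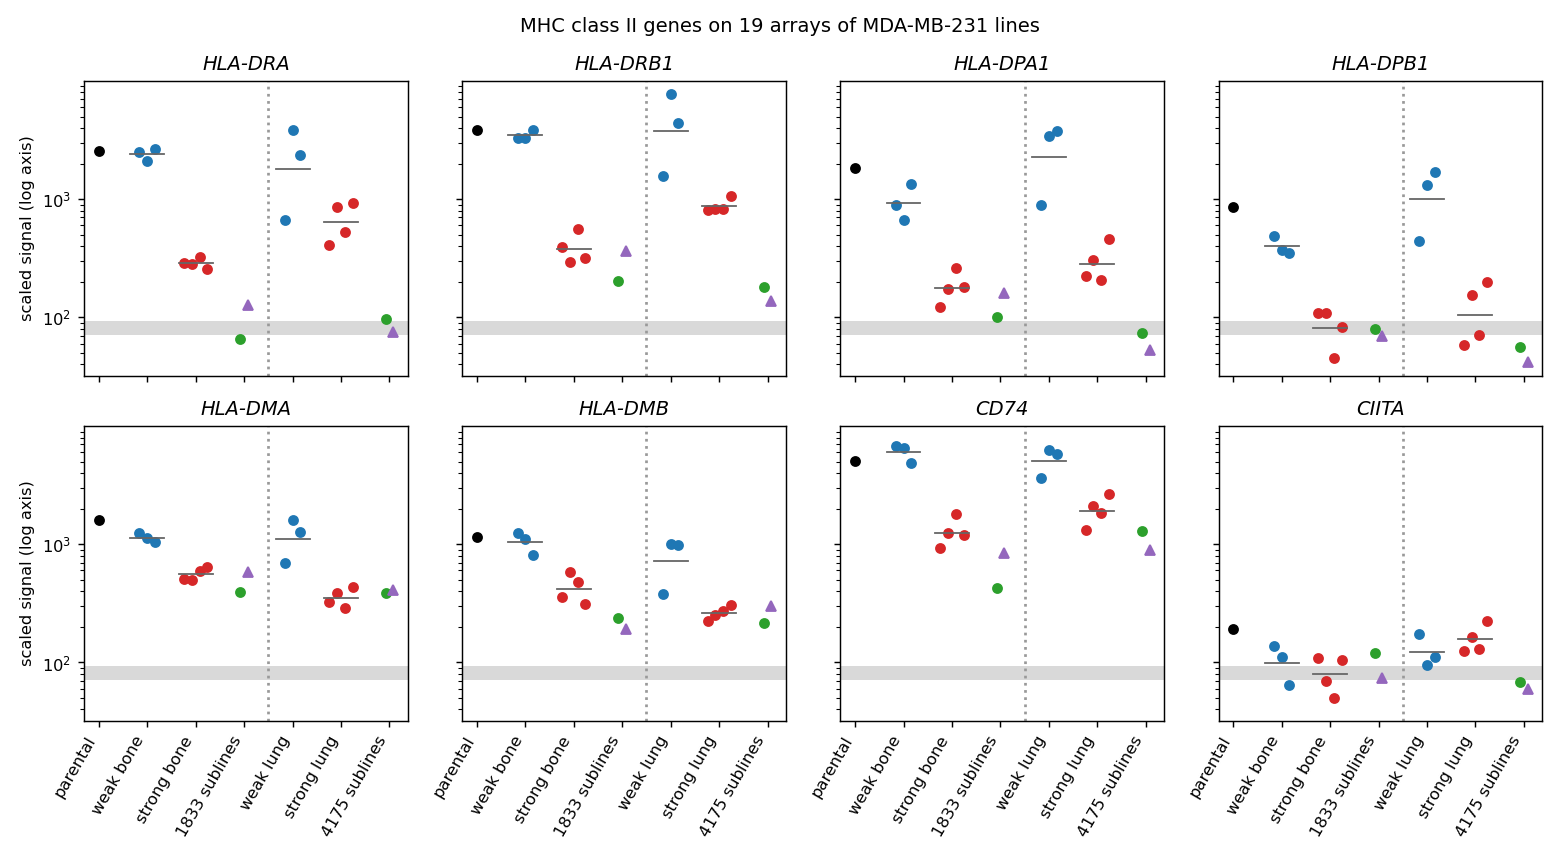
Scaled signal (log axis) of the 8 genes on each of the 19 arrays, with weak lines in blue, strong lines in red, the parental line in black, modal-ploid sublines as green circles and hyper-ploid sublines as purple triangles. The short lines are geometric means of groups of 3 or 4, the grey band spans the arrays' 40th percentiles (71.1 to 93.2), and the dotted line parts the 2 array sets. The parental and weak lines stand above the strong lines in 7 of the 8 panels of the bone set. CIITA runs from 49.7 in 2268 to 225.7 in 4180 and lies above the band in all weak and strong lung lines.

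In the lung set 6 of the 8 genes were lower in strongly than in weakly metastatic lines and 0 were higher, where 5.41% of all genes were called lower and 8.67% in either direction. The median log2 difference of the 8 was -1.55, against -0.02 for all genes. The 6 were both DP chains, both DM chains, CD74 and HLA-DRB1, and in each of these every strong line lay below every weak line, as in 11.4% of all genes. HLA-DRA missed the threshold.

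The DP chains had the greatest differences here. HLA-DPA1 read 892, 3428 and 3798 in the weak lines SCP21, SCP6 and SCP26. It read 222, 308.4, 207.2 and 456.9 in the strong lines 4142, 4173, 4175 and 4180. SCP21 was the lowest weak line and was still above the highest strong line, and the difference was -2.93 (SE 0.45, adjusted p = 0.00125). HLA-DPB1 read 438.2, 1315 and 1705 in SCP21, SCP6 and SCP26, and 58.2, 153.9, 70.3 and 197.2 in 4142, 4173, 4175 and 4180. Its difference was -3.04 (SE 0.46, adjusted p = 0.00105), and 2 of the 4 strong lines were at or below the 40th percentile. The second probe set of HLA-DPA1 gave -2.76 (SE 0.55, adjusted p = 0.00747 over probe sets). The third did not exceed the 40th percentile in any strong line and, as in bone, is given only as a description, at least 3.01-fold lower.

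HLA-DRB1 was 1563, 7692 and 4396 in the weak lines SCP21, SCP6 and SCP26. The strong lines 4142, 4173, 4175 and 4180 read 815.4, 827.1, 823.7 and 1070. The strong line 4180 stood above the other 3, which were close together, and the weak lines ranged widely. The difference was -2.08 (SE 0.39, adjusted p = 0.00495). The 4 probe sets shared with other DR or DQ genes had lung differences from -2.0 to -0.72, and the groups overlapped in the one at -0.72. HLA-DRA read 661.1 in SCP21, 3847 in SCP6 and 2353 in SCP26, against 409.7 in 4142, 853.2 in 4173, 523.8 in 4175 and 927.9 in 4180. SCP21 thus lay among the strong lines, and the difference of -1.48 (SE 0.45) had adjusted p = 0.0563. Without SCP21 it was -2.20 (SE 0.31, adjusted p = 0.00108). Without SCP6 it was -0.94 (adjusted p = 0.219), and with the 7 lung lines fitted alone it was -1.48 (adjusted p = 0.174). HLA-DRA passed in 4 of 17 alternative settings, which were the one without SCP21, a pseudocount of 64, a stricter filter and an intensity trend, the latter 3 at adjusted p = 0.0266, 0.0225 and 0.0202. The second HLA-DRA probe set stood at -2.03 (SE 0.76, adjusted p = 0.126 over probe sets).

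CD74 was 3658, 6260 and 5759 in the weak lines SCP21, SCP6 and SCP26. In the strong lines 4142, 4173, 4175 and 4180 it was 1332, 2103, 1851 and 2647. The groups did not overlap, and the difference was -1.40 (SE 0.27, adjusted p = 0.00612). HLA-DMA had a mean of 1182 ± 461.5 (SD, n = 3) in weak and 358.2 ± 62.8 (SD, n = 4) in strong lines, a difference of -1.61 (SE 0.24, adjusted p = 0.00116). HLA-DMB had 789.3 ± 353.6 (SD, n = 3) and 264.7 ± 33.9 (SD, n = 4), with -1.41 (SE 0.31, adjusted p = 0.0129). Without SCP6 the HLA-DMB difference was -1.17 and no longer passed in limma (adjusted p = 0.0571). With the 7 lung lines fitted alone it had adjusted p = 0.048, and HLA-DRB1 had 0.037. CIITA went the other way without a call: 127.1 ± 42.1 (SD, n = 3) in weak and 161.4 ± 46.1 (SD, n = 4) in strong lines, 0.32 (SE 0.30, adjusted p = 0.58), with overlapping groups.

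Single lung lines kept their place from gene to gene. SCP21 was the lowest of the weak lung lines for 7 of the 8 genes, and CIITA was the exception, with SCP21 the highest. Among the strong lung lines 4180 was the highest for all 8 genes, and 4142 was the lowest for 6 and 4175 for the other 2. These positions rest on 1 array a line and on the probe set that stands for each gene. On the second HLA-DRA probe set 4173 (545.2) lay above 4180 (529.4). How often other genes place the lines this way was not counted, so the order is not shown to be particular to class II.

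**Figure D2:**
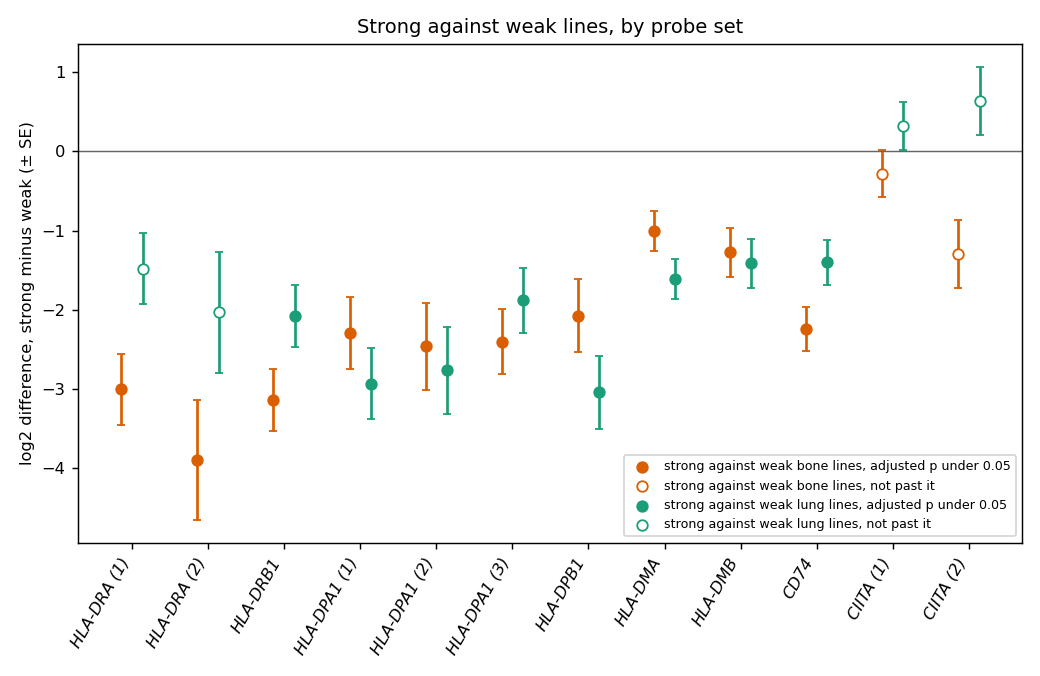
Log2 difference, strong minus weak lines, with its SE, for the 12 member probe sets that passed the filter, in the bone (orange) and lung (green) comparisons; filled points passed an adjusted p of 0.05 over probe sets, and the third HLA-DPA1 probe set, dim in all strong lines, is a description only. All points of the DR, DP and DM chains and of CD74 lie below 0, from -1.0 to -3.89 in bone and from -1.40 to -3.04 in lung, and none of the 4 points of CIITA passed.

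The sizes of the strong-against-weak differences were set against each other between the organs, a contrast in which an effect shared by all bone arrays or all lung arrays cancels. None of the 8 genes passed in limma, where 11.6% of all genes did and 6.87% with a negative sign, and 2 had an unadjusted p below 0.05. HLA-DRA was less lowered in lung than in bone by 1.52 (SE 0.63, adjusted p = 0.142) and CD74 by 0.84 (SE 0.39, adjusted p = 0.185). HLA-DRB1 stood at 1.07 (SE 0.56, adjusted p = 0.245). The DP and DM chains had the opposite sign, -0.96 (SE 0.64) for HLA-DPB1, -0.64 (SE 0.64) for HLA-DPA1, -0.61 (SE 0.35) for HLA-DMA and -0.14 (SE 0.44) for HLA-DMB. The second HLA-DPA1 probe set stood at -0.30 (SE 0.78). The third, dim in all strong lines, had a positive sign at 0.52 (SE 0.58). The sign of HLA-DMB turned under both other scalings of the arrays. The dimmer CIITA probe set stood at 1.93 (SE 0.61, adjusted p = 0.0575 over probe sets). Without SCP6, a weak lung line, HLA-DRA (2.06, SE 0.56, adjusted p = 0.0316) and HLA-DRB1 (1.58, SE 0.46, adjusted p = 0.0441) passed, and without SCP21 HLA-DMA did (-0.96, SE 0.27, adjusted p = 0.0408).

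The parental array was above all 4 strong bone lines for 8 of 8 genes, as it was for 27.2% of all genes. It lay within the range of the weak bone lines for 4 of the 8 and above it for the other 4, and below it for 0. For CIITA this rests on its brightest probe set. On the second CIITA probe set the parental array read 35.5, within the strong lines (5.98 to 51.5) and below the weak lines (67.3 to 95.9). In the bone set the order of group levels for HLA-DRA was therefore the parental and weak lines, which did not differ beyond the spread of the weak lines, then the strong lines, then the 1833 sublines. In the lung set it was weak lines, strong lines and 4175 sublines, with the first 2 overlapping through SCP21. There was 1 parental array, so its own spread is unknown.

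Hyper-ploid and modal-ploid sublines did not differ by any call in the members. Of the 8 genes 0 passed in limma and 0 had an unadjusted p below 0.05, and 0.0105% of all genes were called, in a comparison of 2 against 2 arrays. HLA-DRA read 65.1 in the modal-ploid subline of 1833 and 126.2 in its hyper-ploid counterpart. The same sublines of 4175 read 96.1 and 74.9. Its mean difference was 0.25 (SE 0.31, adjusted p = 1.0). CD74 read 427.6 and 847 in the 1833 pair and 1301 and 894.8 in the 4175 pair, with a mean difference of 0.21 (SE 0.35, adjusted p = 1.0). For both genes the hyper-ploid array was the higher in 1833 and the lower in 4175. HLA-DMA was higher in both hyper-ploid arrays, by 0.53 and 0.08, and HLA-DPB1 lower in both, by -0.17 and -0.33, and neither passed. CIITA stood at -0.38 (SE 0.27, adjusted p = 1.0).

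The DR chains read lower in the sublines than in their lines of origin. In the 4175 family HLA-DRA had a scaled signal of 523.8 in the line itself and lay near the 40th percentile in both sublines, while HLA-DMA was 291.2 in the line and higher in both. HLA-DRB1 was 823.7 in the line 4175 and 179.3 and 137.6 in its modal-ploid and hyper-ploid sublines. Both sublines lay below all 4 strong lung lines for 6 of the 8 genes, against 17.1% of all genes, the exceptions being HLA-DMA and HLA-DMB. For HLA-DPB1 and CIITA both sublines were at or below the 40th percentile. So were the strong lines 4142 and 4175 for HLA-DPB1, so its order is among dim signals. In the 1833 family both sublines lay below all strong bone lines for 3 of the 8, HLA-DRA, HLA-DMB and CD74, against 15.0% of all genes. The line 1833 itself read 289 for HLA-DRA and 393.3 for HLA-DRB1, and its hyper-ploid subline read 361.3 for the latter. The second HLA-DRA probe set was between 5.88 and 15.6 in all 4 sublines. These comparisons of sublines with lines have no test here, and array handling moved with them. Before scaling, the mean log2 signal of 18 spike-in control probe sets was 9.59 to 9.83 on the 4 subline arrays. It was 11.3 to 11.7 in strong bone and 10.5 to 10.99 in strong lung lines. After scaling it was 10.18 to 10.4 on the subline arrays, 11.28 to 11.86 in strong bone and 10.3 to 10.99 in strong lung lines. The subline arrays then overlapped the strong lung lines and stayed below the strong bone lines. The median signal before scaling was 88 to 96.4 on the subline arrays and 121.6 to 161.4 on the other 15. Their part in the low class II signals was not tested. Between strong and weak lines of an organ the spike-ins overlapped, at 11.5 to 11.7 in weak bone and 10.2 to 10.8 in weak lung lines before scaling.

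**Figure D3:**
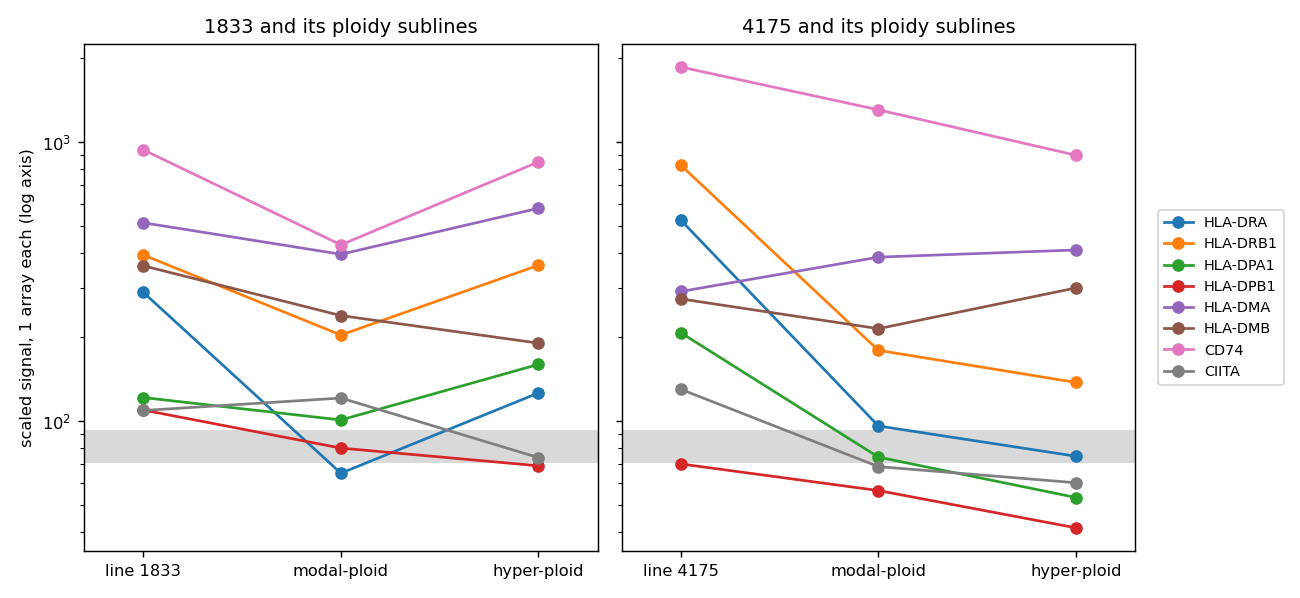
Scaled signal (log axis) of each gene in the line of origin, its modal-ploid and its hyper-ploid subline, 1 array each, for 1833 (left) and 4175 (right), with the grey band at the arrays' 40th percentiles. HLA-DRA lies lower in all 4 sublines (65.1 to 126.2) than in 1833 (289) or 4175 (523.8), and the steps from modal-ploid to hyper-ploid of HLA-DRA, HLA-DRB1, HLA-DPA1 and CD74 go up in 1833 and down in 4175. Each gene is drawn by the probe set that stands for it, and the other HLA-DPA1 probe sets did not follow these steps.

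The 7 genes other than CIITA rose and fell together across arrays. After each set's mean was taken out, their 21 pairs had Pearson's r from 0.817 to 0.973 over the 19 arrays, with a median of 0.893. CIITA had r from 0.147 to 0.393 with the 7. These correlations are descriptions: the arrays share their groups, and the lines fall into high and low ones. By the same measure the genes outside the list most like HLA-DRA were CPD, a carboxypeptidase (r = 0.923), the DNA sensor AIM2 (0.919), the cytochrome P450 CYP1B1 (0.914), the oxygen-sensing hydroxylase EGLN3 (0.912) and the glutathione peroxidase GPX3 (0.906). Those most like CD74 were CPD (0.941), the siderophore carrier LCN2 (0.934), the kinase MAP4K4 (0.922), S100A3 (0.909) and SLC12A8 (0.908).

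Other genes of the class II pathway were read from fixed lists, whose counts stand beside the shares of all genes called in either direction, 11.1% in bone and 8.67% in lung. Of 16 listed partners 9 were tested; 1 was lower in strong bone lines and 2 in strong lung lines, and 0 were higher in either. The median differences were -0.50 and -0.13. The lysosomal protease CTSB fell in strong bone lines (-2.30, SE 0.23, adjusted p = 4.91e-05) and stood at 0.30 in lung. CTSS, the protease that trims the invariant chain, fell in strong lung lines (-2.37, SE 0.35, adjusted p = 0.000999), from a mean signal of 904.8 to 155.2, and stood at -0.31 in bone. CTSD also fell in lung (-1.07, SE 0.26, adjusted p = 0.0224), a call kept in 13 of 17 alternative settings. The third class II isotype, through HLA-DQB1, stood at -0.51 (adjusted p = 0.106) in bone and -0.02 in lung, and HLA-DOA, the alpha chain of the DM inhibitor, at -0.70 (adjusted p = 0.112) and 0.28. Their group means lay between 87.1 and 214.

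Of 19 listed factors of the class II promoters and of interferon gamma signalling 17 were tested, and in bone 2 were higher and 0 lower while in lung 0 were higher and 1 lower, beside 11.1% and 8.67% of all genes called in either direction. The X box factor RFX5 stood at -0.20 in bone and -0.41 in lung, RFXANK at 0.12 and -0.40, and the Y box subunits NFYA at 0.14 and -0.45 and NFYB at 0.05 and -0.05. None of these passed. NFYC rose in strong bone lines (0.73, SE 0.19, adjusted p = 0.0277), a call kept in 12 of 17 settings. The other gene counted as higher in bone was JAK2, the kinase of the interferon gamma receptor. JAK2 was dim in the weak bone lines, with a mean signal of 43.02 against 104.6 in the strong ones. It passed the filter only through arrays other than the weak bone ones. It is therefore given as a description, at least 1.20-fold higher in strong bone lines. The receptor chain IFNGR2 fell in strong lung lines (-1.27, SE 0.17, adjusted p = 0.000553), and IFNGR1 stood at -0.67 (adjusted p = 0.0529) in bone. IRF1, an interferon-induced factor that acts on CIITA, stood at -0.26 and 0.05.

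Of 26 listed interferon gamma response genes 23 were tested. In strong bone lines 3 were lower and 1 higher, with a median of -0.26, where 4.58% of all genes were called lower and 11.1% in either direction. The immunoproteasome subunits PSMB9 (-1.10, SE 0.23, adjusted p = 0.00906) and PSMB10 (-0.67, SE 0.19, adjusted p = 0.0328) and the GTPase GBP2 (-1.15, SE 0.35, adjusted p = 0.0471) fell, and SP110 rose (0.76, SE 0.19, adjusted p = 0.0188). PSMB10, GBP2 and SP110 kept their calls in 11, 7 and 14 of 17 settings. In strong lung lines 7 were lower and 0 higher, with a median of -0.61, where 5.41% of all genes were called lower. These included the class I genes HLA-B (-1.25, SE 0.23, adjusted p = 0.00382), HLA-F (-1.10, SE 0.25, adjusted p = 0.016) and HLA-G (-1.19, SE 0.35, adjusted p = 0.0486). The peptide transporter TAP1 (-1.10, adjusted p = 0.0482), PSMB9 (-1.05, adjusted p = 0.0116) and the adhesion molecule ICAM1 (-1.62, adjusted p = 0.0263) were also lower. HLA-G and TAP1 each kept the call in 6 and ICAM1 in 11 of 17 settings, HLA-F in 15 and PSMB9 in 16, and class I genes share sequence, so that their probe sets may not be specific. Class I HLA-B stood at -0.12 in bone, beside -3.00 for HLA-DRA and -3.14 for HLA-DRB1.

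Of 10 costimulatory genes 9 were tested. ICOSLG fell in strong bone lines (-1.06, SE 0.22, adjusted p = 0.00921) and the ligand TNFSF4 rose in strong lung lines (2.24, SE 0.54, adjusted p = 0.02), a call kept in 14 of 17 settings. Without SCP6 it was 1.53 (adjusted p = 0.0779). No other member of this list was called in either comparison. CD80 stood at -0.08 and 0.12 and CD40 at 0.09 and -0.42.

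**Figure D4:**
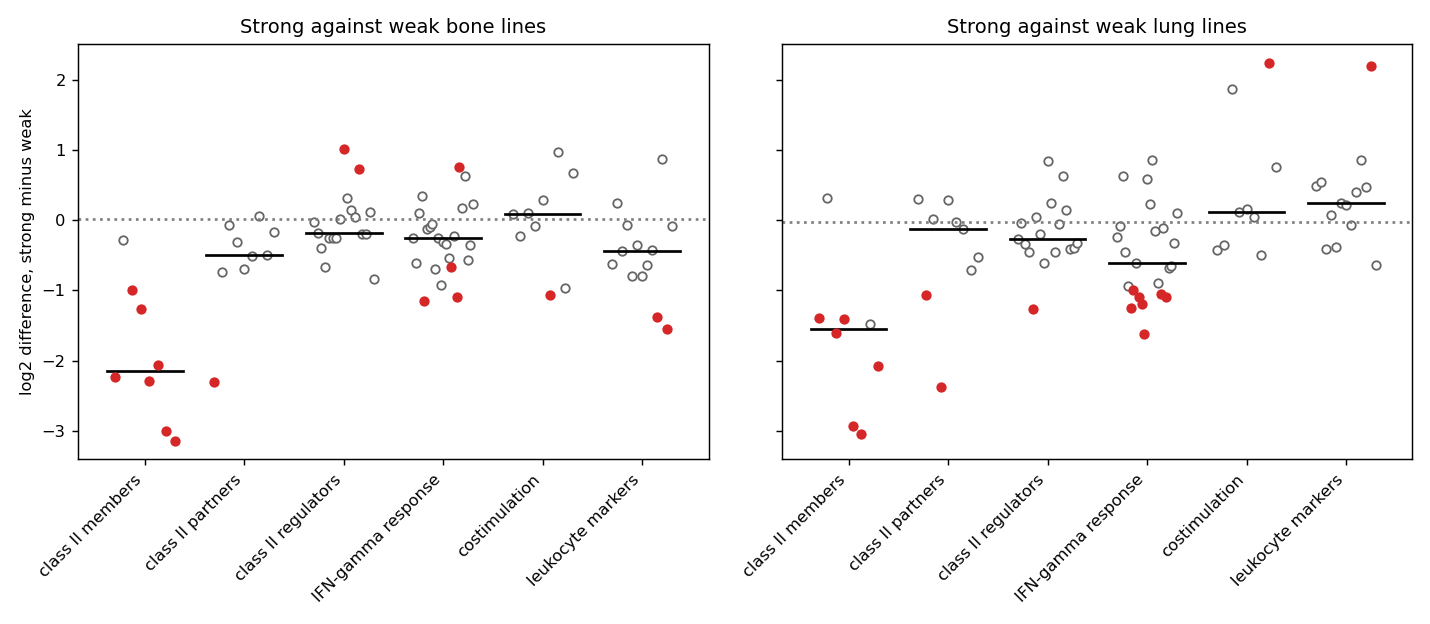
Log2 difference, strong minus weak lines, of each tested gene of 6 lists in the bone (left) and lung (right) comparison; red points passed an adjusted p of 0.05, black bars are list medians and the dotted line is the median of all genes. The class II members lie lowest as a list, with medians of -2.16 and -1.55, and the leukocyte markers have medians of -0.44 and 0.25.

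Markers of leukocytes, which carry class II of their own, were read beside these results. Of 20 listed markers 19 had a recovered signal, and 6 (PTPRC, CD79B, ITGAX, TYROBP, CD1C and SPI1) lay at or below the 40th percentile on all 19 arrays. The summed signal of the 19 was 8386 to 8512 in weak and 2661 to 4356 in strong bone lines, and 3097 in the parental line. In the lung set it ran opposite to class II, with 2151 to 2976 in weak and 6779 to 7525 in strong lines. Most of this sum was LAPTM5, a lysosomal membrane protein, which fell in strong bone lines (-1.55, SE 0.20, adjusted p = 0.000343) and rose in strong lung lines (2.20, SE 0.20, adjusted p = 3.45e-05). HCLS1 also fell in bone (-1.38, SE 0.32, adjusted p = 0.0135), a call kept in 15 of 17 settings. Of the 13 markers tested no other was called. How far leukocyte RNA bears on the class II differences was not tested. Of the 9 markers listed for the line itself 8 had a recovered signal, and these, CD44, KRT8, KRT18, LGALS1, ANXA1, AXL, CAV1 and MSN, were above the 40th percentile on all 19 arrays. CAV1 was lower in strong bone lines (-0.71, adjusted p = 0.0139). PGR exceeded the percentile on none, CDH1 on 1 and ESR1, at 51.6 to 177, on 16. In bulk RNA, fewer cells with class II and less class II RNA per cell cannot be told apart.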

How the data were processed

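Per the labels' protocols, column-purified total RNA was made into biotin-labelled cRNA for Affymetrix arrays. How images were read and scaled is not stated in the labels used here. The authors deposited a linear ratio per probe set and array. Within each of the 2 sets of arrays the ratios were whole multiples of a step, so signals in units of 0.1 were recovered for 22179 of 22283 probe sets (99.5%), with a tolerance of 0.01 steps that widened for bright signals. After shuffling probe sets within arrays 0% were recovered. A factor common to all arrays of a set would escape this. Signals were scaled to a common median, expressed as log2(signal + 16), and kept if they exceeded the 40th percentile of 2 or more of the 19 arrays (16275 probe sets). Genes were named where the platform annotation gave 1 symbol. The kept probe set of highest mean represented each gene.

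Groups were compared with limma 3.58.1 in R 4.3.3 (lmFit, eBayes). The 14 bone and lung lines were fitted with 1 mean per group. The 4 ploidy arrays were fitted with the line of origin, given by the labels, as a block. Sublines of 1 line deviated together (r = 0.513 over genes). Each pair lies in its own array set, so line of origin and array set cannot be told apart in this value. The fits were tested on simulated data. Fold bounds set the brighter group's mean against the dimmer group's 40th percentile. The design had foreseen either recovered signals or ratios. Named were all 8 members and, from the lists, up to 6 called genes a comparison. The members and lists were chosen with earlier results of these data known. Alternatives were 2 other scalings, pseudocounts of 4 and 64, no filter and a stricter one, all probe sets, the deposited ratios, an intensity trend, the 7 lines of an organ alone, each line left out, and the ploidy pairs without the block or singly.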

Additional observations from a re-analysis of the deposited data

Results flagged for a closer look

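Within the strong lung lines, 2 member probe sets had 1 line far from the rest. The second HLA-DRA probe set read 158.1 in 4142 and 526.7 or more in the others, a gap of 0.952 of the group's range. HLA-DRB1 read 1070 in 4180 and 827.1 or less in the others, a gap of 0.954 of the range. At the 95% critical value used for such gaps, chance alone would pass about 1 in 20 groups.

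The step from modal-ploid to hyper-ploid ran opposite ways in the lines of origin for 5 genes, each read by the probe set that stands for it. The other HLA-DPA1 probe sets did not show the same steps. The second fell in both lines, from 83.8 to 76.2 in 1833 and from 35.2 to 19.8 in 4175. The third fell in 1833 (58.1 to 50.1) and rose in 4175 (4.96 to 21.3). Most of these signals were at or below the 40th percentile. The log2 step in 1833 minus that in 4175 was 1.11 for HLA-DRA, 1.13 for HLA-DRB1, 0.97 for HLA-DPA1, 1.49 for CD74 and -0.77 for HLA-DMB. With 1 array for each subline these differences were not tested. The share of all genes with opposite steps was not counted, so the 5 are not shown to stand out. HLA-DRA (65.1 to 126.2) and HLA-DPA1 (53.3 to 159.7) were at or below the 40th percentile on some of these arrays.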

How the results depend on the processing

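The count of members called lower was 7 in bone under all 11 settings that kept every line, the reported one included, and 6 or 7 in lung. With 1 line left out it was 4 to 7 in bone and 5 to 7 in lung. In the contrast of the organs the count of members called in either direction was 0 to 2 with 1 line left out and 0 otherwise. The 2 without SCP6, HLA-DRA and HLA-DRB1, had a positive sign, and the 1 without SCP21, HLA-DMA, a negative one. For ploidy the count was 0 throughout. No called member changed sign. Uncalled ones did: in the contrast of the organs HLA-DMB was 0.02 after quantile normalisation, 0.01 with a common trimmed mean, and from -0.59 to 0.09 with 1 line left out (0.03 without 2296, 0.01 without 2274, 0.09 without SCP6, 0.08 without SCP26). With the 4175 pair alone the ploidy difference was -0.30 for HLA-DRA, -0.35 for HLA-DRB1, -0.38 for HLA-DPA1 and -0.53 for CD74, and with the 1833 pair alone -0.31 for HLA-DMB. The causes were not tested. Without the replicate block no member was called (0).

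Of all genes called, 41.1% were lower in bone and 62.4% in lung, against 53.1% and 52.3% with a common trimmed mean. All genes called in bone numbered 1064, and 533 to 1251 with 1 line left out. In lung they were 828, 430 with the 7 lung lines alone and 502 to 999 with 1 line left out. In ploidy they were 1, and 0 to 25 otherwise. Signals near the 40th percentile limit what can be said of CIITA, and the arrays' number limits the precision.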
